A study of Mus musculus with 6 samples.

Results

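The 7 genes that encode the subunits of the NMDA receptor (*Grin1*, *Grin2a*, *Grin2b*, *Grin2c*, *Grin2d*, *Grin3a* and *Grin3b*) were followed in RNA-Seq of the somatosensory cortex from *Mef2c* cKO mice and control littermates. They were chosen by gene symbol, and all 7 were among the 21667 named genes of each table. The 3 control mice carried floxed *Mef2c* on both alleles (*Mef2c* fl/fl) and no Cre. The 3 *Mef2c* cKO mice carried the same floxed alleles and Cre inserted into 1 copy of *Emx1*, which is active from embryonic life in most cortical excitatory neurons and in some forebrain glia, so that other cells of the tissue, among them the cortical interneurons, keep *Mef2c*. All mice were males of a mixed SVeV-129 and C57BL/6J background. Replicate 1 of each genotype was 14 weeks old, and replicates 2 and 3 were 12 weeks old. The comparison asks how the RNA of the receptor subunits differs in adult cortex when MEF2C, a transcription factor, has been lost from these neurons since early development.

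The NMDA receptor is a glutamate-gated channel built of several subunits that lets calcium into neurons when glutamate binds while the membrane is depolarised. GluN1, encoded by *Grin1*, is required in every receptor and binds the co-agonist glycine or D-serine. The GluN2 subunits, encoded by *Grin2a* to *Grin2d*, bind glutamate and set how long the channel stays open, and the GluN3 subunits, encoded by *Grin3a* and *Grin3b*, bind glycine and lower calcium entry. In cortex *Grin2b* is high early in life and *Grin2a* rises as synapses mature.

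Of the 7 subunit genes, *Grin3a* increased and *Grin2a* decreased in *Mef2c* cKO cortex, while *Grin1*, *Grin2b*, *Grin2c* and *Grin2d* did not pass the test and *Grin3b* had too few reads to be tested. *Grin3a* reads rose to 1.504 times the control level and *Grin2a* reads fell to 0.724 times. The levels are in CPM, counts per 1000000 reads: whole read counts of a gene, recovered from the deposited RPKM values, over the reads of all genes in that mouse. The deposited RPKM could not be compared between mice as they stand, because the length that a gene's reads had been divided by differed from table to table. A gene passed when its Benjamini-Hochberg adjusted p-value from limma, over 14556 genes tested, was under 0.05 and its absolute log2 fold change above 0.3. Fold changes are on the log2(CPM + 0.1) scale, which understates the change of low genes. Over all genes tested, 7.77% passed as decreased and 5.85% as increased, beside 1 decreased and 1 increased among the 6 subunit genes tested.

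**Figure D1:**
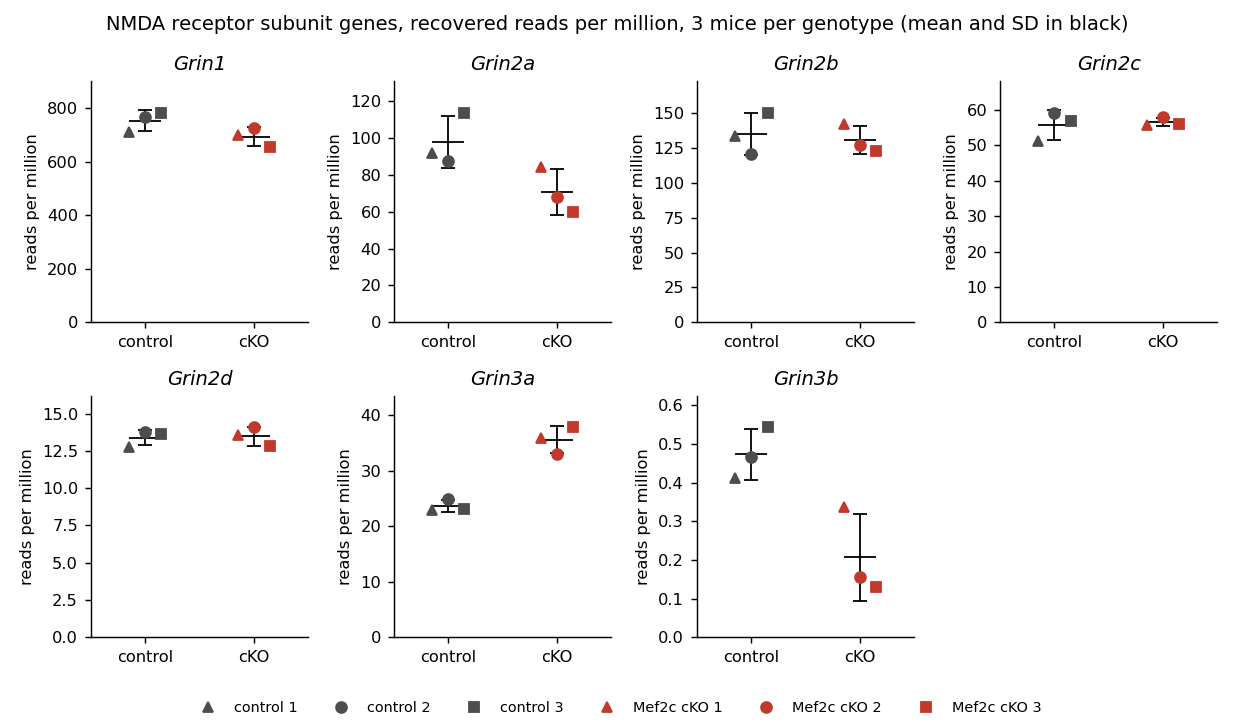
Recovered CPM (vertical axes, each starting at 0) of the 7 NMDA receptor subunit genes in the 3 control and 3 *Mef2c* cKO mice; points are mice, black bars the mean and SD. The 3 *Mef2c* cKO mice lie above all controls for *Grin3a* and below all controls for *Grin2a* and *Grin3b*, and the genotypes overlap for the other 4 genes.

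The tissue and the genotypes were first looked at in the libraries. The totals were 19326365 to 54128334 reads per mouse, lowest in *Mef2c* cKO replicate 2. *Mef2c* itself was at 800, 772 and 800 CPM in control replicates 1, 2 and 3 and at 1231, 1276 and 1468 CPM in *Mef2c* cKO replicates 1, 2 and 3. This count covers the whole gene, including exons outside the floxed part, and so does not check the deletion. *Emx1*, the gene that holds the Cre insertion, was at 16.5, 20.3 and 18.8 CPM in the controls and at 5.71, 4.97 and 5.10 CPM in the *Mef2c* cKO mice. The direction of every comparison rests on the labels of the libraries. The cortical markers *Slc17a7* and *Camk2a* were high in all 6 mice (1137 to 1289 CPM and 2965 to 3940 CPM). The labels give each genotype 3 independent mice, and with 3 against 3 an exact permutation test of a single value cannot go below p = 0.1. In bulk tissue, fewer cells of a type and less RNA per cell cannot be told apart.

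*Grin1*, the gene of the obligate GluN1 subunit (minus strand of chr2:25146701-25174707 in mm9), was by far the most abundant. It was at 708, 768 and 783 CPM in control replicates 1, 2 and 3 and at 700, 726 and 653 CPM in *Mef2c* cKO replicates 1, 2 and 3. The genotypes overlapped, since *Mef2c* cKO replicate 2 lay above control replicate 1. The mean was 753 ± 39.3 CPM in the controls and 693 ± 36.8 CPM in the *Mef2c* cKO mice (SD, n = 3 each). The log2 fold change was -0.12 ± 0.07 (SE), with a 95% interval of -0.27 to 0.03 and an adjusted p of 0.277 from limma, so that a fall of the obligate subunit's RNA to under 0.830 times, or a rise to over 1.021 times, lies outside the interval.

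*Grin2a* encodes GluN2A, the GluN2 subunit that marks mature cortical synapses and gives the receptor its fast decay. The gene spans chr16:9577803-9995014 (mm9, minus strand). It was at 91.6, 87.4 and 114 CPM in control replicates 1, 2 and 3 and at 84.1, 68.2 and 59.6 CPM in *Mef2c* cKO replicates 1, 2 and 3. All 3 *Mef2c* cKO mice lay below the 3 controls, but the 14-week-old *Mef2c* cKO mouse lay close to the lowest control. Of 14343 tested genes that had a count in all 6 mice, 17.5% had all *Mef2c* cKO values below those of the controls and 16.3% had all of them above. *Grin2a* fell by 0.47 on the log2 scale (SE 0.13, 95% interval -0.77 to -0.17, limma adjusted p = 0.0409), from a mean of 97.6 ± 14.1 to 70.6 ± 12.5 CPM (SD, n = 3 each). The controls alone varied by 14.5% of their mean, against 3.88% for *Grin2d*, which has far fewer reads.

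The call for *Grin2a* stood near the threshold. Settings that ended it included leaving out control replicate 1 (limma adjusted p = 0.0713), control replicate 3 (0.127), *Mef2c* cKO replicate 2 (0.104) or *Mef2c* cKO replicate 3 (0.115), a fit without the variance trend (0.105) or without the filter on low values (0.231), and age as a covariate (0.0543). It was kept without both 14-week-old mice, where *Grin2a* fell by 0.65 on the log2 scale (limma adjusted p = 0.0252). Over all alternatives the limma adjusted p of *Grin2a* ran from 0.0115 to 0.961, the last from the deposited RPKM as they stand.

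*Grin2b* encodes GluN2B, the subunit of young cortical synapses, which binds CaMKII and has a slower decay than GluN2A. It lies at chr6:135679844-136123529 (mm9, minus strand). It was at 133, 121 and 150.3 CPM in control replicates 1, 2 and 3 and at 142, 127 and 123 CPM in *Mef2c* cKO replicates 1, 2 and 3. The *Mef2c* cKO values all lay within the range of the controls. The log2 fold change was -0.04 ± 0.09 (SE), with a 95% interval of -0.24 to 0.16 and a limma adjusted p of 0.811.

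*Grin2c*, which encodes GluN2C, a subunit best known from cerebellar granule cells and also made by glia and some interneurons, was at 51.1, 59.3 and 56.9 CPM in the controls and at 55.9, 58.0 and 56.1 CPM in the *Mef2c* cKO mice. The gene lies at chr11:115110483-115128557 (mm9, minus strand). Its 3 *Mef2c* cKO values were the closest together of any subunit gene, with an SD of 2.03% of their mean, and lay within the range of the controls. The log2 fold change was 0.03 ± 0.07 (SE, 95% interval -0.13 to 0.18, limma adjusted p = 0.856).

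*Grin2d* encodes GluN2D, a slowly closing subunit found in interneurons and in deep brain regions, and lies at chr7:53087253-53126298 (mm9, minus strand). It was at 12.8, 13.7 and 13.6 CPM in the controls and at 13.6, 14.1 and 12.8 CPM in the *Mef2c* cKO mice, from 272 to 702 reads. The genotypes overlapped throughout. The log2 fold change was 0.01 ± 0.09 (SE, 95% interval -0.19 to 0.21, limma adjusted p = 0.955). For *Grin2b*, *Grin2c* and *Grin2d* the 95% intervals stayed within the 0.3 cut-off on both sides.

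*Grin3a* encodes GluN3A, a subunit that is high in juvenile brain, lowers the calcium entry of the receptor and restrains the maturation of synapses. The gene spans chr4:49674483-49858616 (mm9, minus strand). It was at 22.9, 24.98 and 23.1 CPM in control replicates 1, 2 and 3 and at 35.9, 33.0 and 37.8 CPM in *Mef2c* cKO replicates 1, 2 and 3. The 3 *Mef2c* cKO mice were all above the 3 controls, with a gap between the genotypes wider than the range within either. *Grin3a* rose by 0.59 on the log2 scale (SE 0.08, 95% interval 0.41 to 0.76, limma adjusted p = 0.000902), from 23.6 ± 1.17 to 35.5 ± 2.44 CPM (SD, n = 3 each), and ranked 570 by p-value among the 14556 genes tested. The counts behind these values ran from 637 to 2046 reads, so that counting error alone spans 30.5 to 35.6 CPM in the shallowest library, *Mef2c* cKO replicate 2 (exact Poisson 95% interval, counting error only), which is above the highest control. No single mouse decided the call, since the log2 fold change was between 0.54 and 0.64 with each mouse left out in turn (highest limma adjusted p 0.00489, against 0.758 with the deposited RPKM, the highest over all alternatives).

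*Grin3b* encodes GluN3B, which is known mainly from motor neurons, and lies at chr10:79433460-79439935 (mm9, plus strand). The controls had 14, 23 and 28 reads on it and the *Mef2c* cKO mice 11, 3 and 7, in the order of their replicate numbers. These reads amount to 0.412, 0.466 and 0.543 CPM in the controls and to 0.336, 0.155 and 0.129 CPM in the *Mef2c* cKO mice. All 3 *Mef2c* cKO values were lower than those of the controls. The exact Poisson 95% interval of *Mef2c* cKO replicate 3 (0.0520 to 0.267 CPM) overlapped that of control replicate 1 (0.225 to 0.691 CPM). It did not overlap those of control replicates 2 (0.295 to 0.699 CPM) and 3 (0.361 to 0.785 CPM). The intervals of *Mef2c* cKO replicates 1 (0.168 to 0.601 CPM) and 2 (0.0320 to 0.454 CPM) overlapped those of all 3 controls. Summed over the mice of a genotype there were 65 reads in the controls (0.372 to 0.614 CPM) and 21 in the *Mef2c* cKO mice (0.122 to 0.302 CPM), intervals that do not overlap and that cover counting error only, not the spread between mice. The filter asks for more than 0.5 CPM in every mouse of a genotype, which only control replicate 3 reached, so *Grin3b* had no part in the fit. On its own the exact two-sided permutation test gave p = 0.1, the smallest that 3 against 3 allows, and the log2 difference of -0.96 shrank to -0.29 with a pseudocount of 1. The read count of *Mef2c* cKO replicate 3 fitted more than 1 length, as did those of *Grin2b* and *Grin2c* in control replicate 2, and was settled by the lengths of genes that neighbour it in the order of gene IDs.

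Levels of different genes were compared only per length, as CPM per kilobase of the longest coding transcript in the GENCODE annotation of mm9. On this scale *Grin1* stood at 176 ± 9.20 in the controls (SD, n = 3), *Grin2a* at 20.3 ± 2.93, *Grin2b* at 18.002 ± 1.99, *Grin2c* at 11.4 ± 0.858, *Grin3a* at 3.16 ± 0.156, *Grin2d* at 2.46 ± 0.0957 and *Grin3b* at 0.144 ± 0.0202. The control means of *Grin2a* and *Grin2b* differed by less than the SD of *Grin2a*, with *Grin2a* above *Grin2b* in each of the 3 controls. In the *Mef2c* cKO mice *Grin2a* was at 14.7 ± 2.58 and *Grin2b* at 17.5 ± 1.36, and *Grin2a* was below *Grin2b* in each of the 3. Per coding length *Grin2b* was above *Grin2a* in all 6 mice, and per kilobase of all annotated exons *Grin2d* was above *Grin3a* in 5 of the 6, so the order within these 2 pairs depends on the length used. The places of *Grin1*, *Grin2c* and *Grin3b* were the same with all 3 lengths. Of the sum of the 6 genes other than *Grin1*, per kilobase of the longest transcript, *Grin2a* made up 36.4% ± 2.04 in the controls and 28.6% ± 2.84 in the *Mef2c* cKO mice, and *Grin3a* 5.73% ± 0.663 and 9.35% ± 1.07 (SD, n = 3 each). *Grin2b* made up 32.5% ± 1.53 and 34.3% ± 0.294. These are shares of RNA and say nothing of the receptors at the membrane.

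The ratio of 2 genes within a mouse does not depend on how the library was scaled. There were 0.688, 0.725 and 0.757 *Grin2a* reads for each *Grin2b* read in control replicates 1, 2 and 3 and 0.592, 0.538 and 0.484 in *Mef2c* cKO replicates 1, 2 and 3. The *Mef2c* cKO mice all lay below the controls, and the ratios spread less within a genotype than the *Grin2a* levels themselves. The mean fell from 0.723 ± 0.0348 to 0.538 ± 0.0537 (SD, n = 3 each), a difference of -0.43 in the log2 ratio. The exact two-sided permutation test gave p = 0.1, the smallest it can give (Benjamini-Hochberg adjusted p = 0.14 over 7 ratios).

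**Figure D2:**
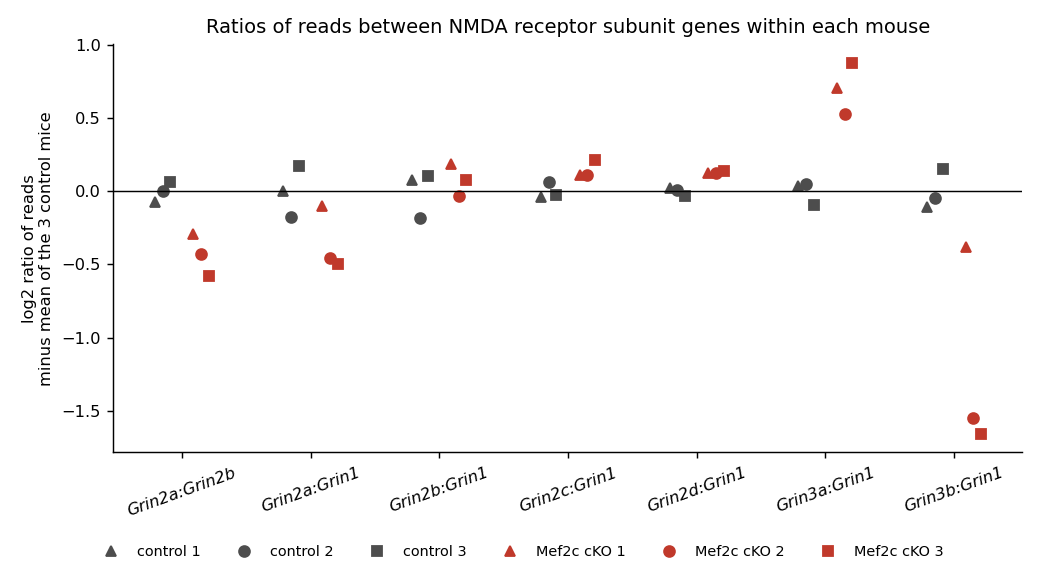
Log2 ratio of reads between 2 subunit genes in each mouse (vertical axis), less the mean of the 3 control mice, for the 7 ratios on the horizontal axis; points are mice, with no error bars. *Mef2c* cKO mice lie below all controls for *Grin2a*:*Grin2b* and *Grin3b*:*Grin1*, above all controls for *Grin2c*, *Grin2d* and *Grin3a* over *Grin1*, and overlap with them for *Grin2a* and *Grin2b* over *Grin1*.

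Against *Grin1*, the largest differences were those of *Grin3b* and *Grin3a*. *Grin3b*:*Grin1*, which rests on 3 to 28 *Grin3b* reads per mouse, differed by -1.20 on the log2 scale, with no overlap between the genotypes (exact permutation p = 0.1, adjusted 0.14). *Grin3a*:*Grin1* was 0.0323, 0.0325 and 0.0295 in control replicates 1, 2 and 3 and 0.0513, 0.0454 and 0.0579 in *Mef2c* cKO replicates 1, 2 and 3, a difference of 0.71 on the log2 scale (exact permutation p = 0.1, adjusted 0.14). *Grin2c*:*Grin1* and *Grin2d*:*Grin1* differed by 0.15 and 0.13, with no overlap between the genotypes and the same p-values (exact permutation test). Both ratios share the *Grin1* reads, so they are not separate results. The log2 fold change was -0.12 for *Grin1*, 0.03 for *Grin2c* and 0.01 for *Grin2d*, and none of these genes passed. *Grin2a*:*Grin1* overlapped, because control replicate 2 had a ratio of 0.114 and *Mef2c* cKO replicate 1 one of 0.120 (exact permutation p = 0.2, adjusted 0.233). *Grin2b*:*Grin1* overlapped as well (exact permutation p = 0.6, difference 0.08).

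The genes whose levels moved most like *Grin2a* and *Grin3a* over the 6 mice were found by the lowest root mean square difference of log2(CPM + 0.1), each gene centred on its own mean, among 10176 genes. Nearest to *Grin2a* were *Atxn7l1* (0.0649), *Dgkh* (0.0755), which encodes a diacylglycerol kinase, and *Sox5* (0.0908), a transcription factor of deep-layer neurons. *Atxn7l1* went from 32.9 ± 3.55 to 24.1 ± 3.10 CPM, *Dgkh* from 39.8 ± 5.001 to 26.2 ± 3.73 CPM and *Sox5* from 34.9 ± 5.91 to 26.5 ± 3.07 CPM (SD, n = 3 each). *Sox5* did not pass the test (limma adjusted p = 0.0734). Like *Grin2a*, all 3 were highest in control replicate 3 and lowest in *Mef2c* cKO replicate 3. They were chosen by their likeness over these same 6 mice, so this adds nothing to the distances. Nearest to *Grin3a* were *Epha5* (0.0381), an ephrin receptor, *Ass1* (0.0401), argininosuccinate synthase, and *Syt5* (0.0432), a synaptotagmin. Their means went from 127 ± 4.62 to 184 ± 14.8 CPM, from 16.5 ± 0.897 to 25.6 ± 1.19 CPM and from 103 ± 1.56 to 149.7 ± 11.2 CPM. These distances are over 6 libraries in 2 genotypes, so a genotype difference of similar size already brings genes closer. The pattern within each genotype counts too.

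The other ionotropic glutamate receptors gave a comparison within the same fit. Of the 4 AMPA receptor subunit genes, which carry most of the fast excitatory current, *Gria1* rose (log2 fold change 0.64, from 281 ± 24.9 to 439 ± 38.6 CPM), *Gria3* rose (0.35) and *Gria4* fell (by 0.31 on the log2 scale), while *Gria2*, which makes the channel impermeable to calcium, had a log2 fold change of 0.23 and did not pass the cut-off on size. Of the 5 kainate receptor subunit genes, *Grik4* fell by 0.54 and *Grik1* by 0.32 on the log2 scale. Neither of the 2 delta receptor subunit genes passed. Over all genes tested, 7.77% decreased and 5.85% increased. The median log2 fold change was -0.02 over the 6 NMDA subunit genes tested, 0.29 over the AMPA genes, -0.20 over the kainate genes and 0.01 over all genes tested. The number of genes in each family is too small for these medians to set the families apart.

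**Figure D3:**
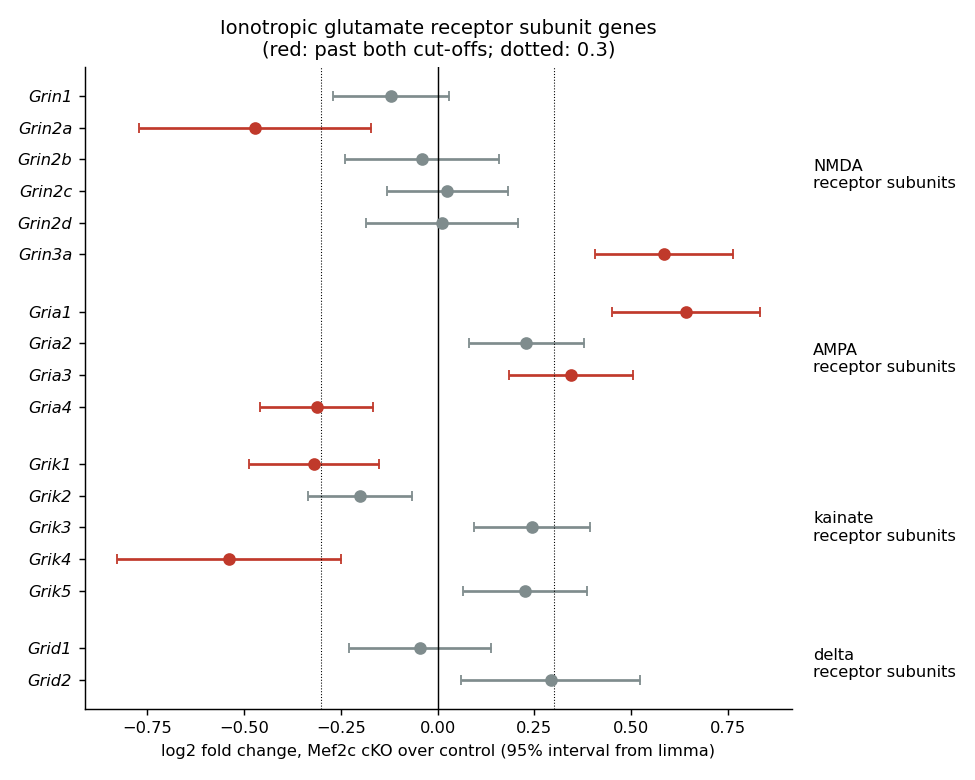
Log2 fold change of *Mef2c* cKO over control (horizontal axis) for the ionotropic glutamate receptor subunit genes (vertical axis), with limma 95% intervals; red marks genes past both cut-offs and dotted lines the 0.3 cut-off. *Grin3a* (0.59) and *Gria1* (0.64) lie highest and *Grik4* (-0.54) and *Grin2a* (-0.47) lowest, with *Grin2a* and *Grik4* having the widest intervals.

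Genes that act on or with the receptor were taken from lists by function. The 9 lists counted here also hold the AMPA, kainate and delta receptor subunit genes above, which belong to other receptors. The AMPA genes gave 1 of the decreased and 2 of the increased genes, and the kainate genes 2 of the decreased. Over 9 lists, 95 genes were tested, of which 11 decreased (11.6%, against 7.77% of all genes tested) and 14 increased (14.7%, against 5.85%), with a median log2 fold change of 0.01, beside 0.01 over all genes tested. In the handling of the co-agonists, *Slc6a9*, the glycine transporter GlyT1, rose from 37.2 ± 1.021 to 47.0 ± 3.65 CPM (SD, n = 3 each). *Phgdh*, the first enzyme of serine synthesis, rose from 106 ± 5.18 to 145 ± 16.6 CPM. These were 2 of the 10 genes tested in this list (20%, against 5.85% of all genes tested), and none decreased (against 7.77%). *Srr*, which makes D-serine, did not pass (log2 fold change 0.16, limma adjusted p = 0.239). Another 6 genes of this list, all of them for glycine transport outside cortex, D-serine breakdown or the kynurenine pathway, were too low to test.

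Of the 8 genes for the PSD-95 family of scaffolds and their linkers, 1 decreased (12.5%, against 7.77% of all genes tested) and none increased (against 5.85%). The decreased gene, *Dlgap2*, fell by 0.60 on the log2 scale, from 156 ± 22.8 to 102 ± 9.33 CPM. *Dlg4*, which encodes PSD-95 itself, had a log2 fold change of -0.22 and stayed inside the cut-off on size (limma adjusted p = 0.0374). The median of this list was -0.18. Among 15 trafficking and auxiliary partners, 4 increased (26.7%, against 5.85% of all genes tested) and none decreased (against 7.77%). They were *Drd1*, a dopamine receptor that binds the NMDA receptor (log2 fold change 1.70), *Apba1* (0.49) and *Kif17* (0.30, just past the cut-off), the adaptor and the motor that carry GluN2B along dendrites, and *Nefl*, a neurofilament gene (0.33). *Drd1* was at 20.2, 21.4 and 17.7 CPM in the controls and at 69.5, 49.6 and 77.4 CPM in the *Mef2c* cKO mice. It is also a marker of striatal neurons, and the marker *Adora2a* ranged from 5.14 to 9.56 CPM in the controls and from 1.35 to 20.3 CPM in the *Mef2c* cKO mice. The part of striatal tissue in the *Drd1* difference was not tested.

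Of 23 kinases and phosphatases that act on the receptor, 2 decreased and 2 increased (8.7% each). Over all genes tested 7.77% decreased and 5.85% increased. *Prkca*, a protein kinase C gene, rose by 0.52 on the log2 scale. *Ptpn5*, the phosphatase STEP that removes surface NMDA receptors, fell by 0.55 and *Prkacb*, a catalytic subunit of protein kinase A, by 0.40 on the log2 scale. *Camk2a*, the kinase that docks on GluN2B, was at 3346 CPM in the controls and at 3330 CPM in the *Mef2c* cKO mice on average. Of 18 genes for signalling downstream of calcium entry, 4 decreased and 4 increased (22.2% each, against the same 7.77% and 5.85%). *Rasgrf2*, a Ras activator, showed the largest change of all list genes and fell by 1.96 on the log2 scale, from 173 ± 19.4 to 44.4 ± 4.53 CPM, and its relative *Rasgrf1* rose by 0.59. *Nos1*, neuronal nitric oxide synthase, which is tied to the receptor by PSD-95, rose by 1.498, *Mapk3* (ERK1) by 0.41, and *Tiam1*, a Rac activator, fell by 0.60 and *Camk4* by 0.49.

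Of 10 genes linked to the exchange of *Grin2b* for *Grin2a* during development, 1 decreased (10%, against 7.77% of all genes tested) and none increased (against 5.85%). It was *Vldlr*, a reelin receptor, which fell by 0.51 on the log2 scale, from 129 ± 4.15 to 90.4 ± 6.38 CPM (limma adjusted p = 0.000655). *Rest*, a repressor of *Grin2b*, was low in both genotypes, at 3.002 CPM in the controls and 2.82 CPM in the *Mef2c* cKO mice on average. *Reln* had a log2 fold change of -0.22 and *Grm5* of 0.24, and neither passed both cut-offs.

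**Figure D4:**
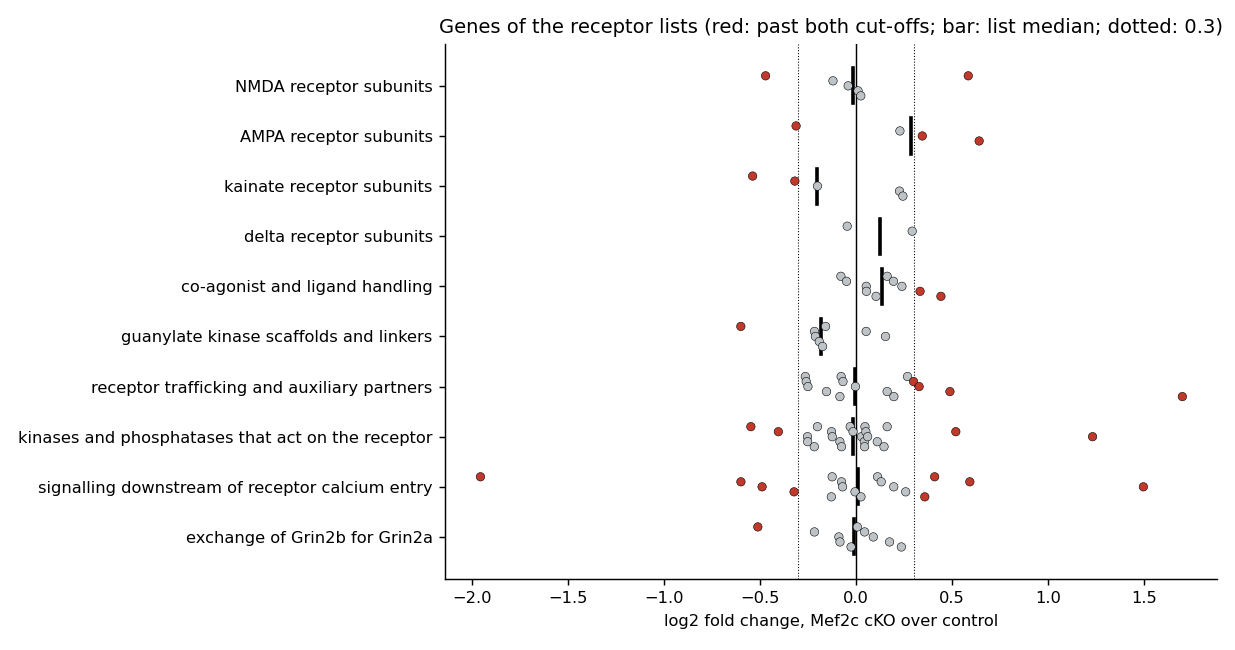
Log2 fold change of *Mef2c* cKO over control (horizontal axis) for every tested gene of the NMDA receptor subunits and of the 9 lists (vertical axis); points are genes, red past both cut-offs, and black bars the list medians. Genes past the cut-offs lie on both sides of 0 in several lists, from *Rasgrf2* (-1.96) to *Drd1* (1.70).

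Markers of the cell types that could carry these genes moved too. Over all genes tested 7.77% decreased and 5.85% increased, against which these short marker lists can be read. Among pyramidal neuron markers 2 of 8 decreased, *Nrn1* and *Emx1*, the latter the gene that holds the Cre insertion, and 4 increased. Their summed level was 4868 to 5610 CPM in the controls and 5145 to 6046 CPM in the *Mef2c* cKO mice. Of 8 interneuron markers, *Pvalb* fell by 0.80 on the log2 scale and *Sst* (0.57) and *Npy* (0.54) rose, with sums of 738 to 835 CPM and 782 to 854 CPM. The 8 astrocyte markers summed to 4736 to 5038 CPM in the controls and 4169 to 4436 CPM in the *Mef2c* cKO mice. Most of this sum was 1 gene, *Slc1a2*, which did not pass (3407 ± 150 and 2864 ± 139 CPM, SD, n = 3 each). Of the 8 astrocyte markers 1 decreased (*Aldh1l1*, by 0.39 on the log2 scale) and 2 increased (*Gfap* by 1.37 and *Aqp4* by 0.73). Without overlap between the genotypes, 4 were lower and 3 higher in the *Mef2c* cKO mice, and the median log2 fold change was -0.20. The 8 oligodendrocyte markers summed to 3241 to 5353 CPM and 5245 to 6751 CPM with 1 increased, and the 5 precursor markers to 209 to 225 CPM and 238 to 277 CPM with 3 increased. None of the 8 microglia and 8 endothelial markers passed. The part of these cell types in the *Grin2a* and *Grin3a* differences was not tested.

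Markers of neighbouring tissue were low or mixed. The striatal markers with a count in every mouse summed to 164 to 228 CPM in the controls and 186 to 351 CPM in the *Mef2c* cKO mice with 2 of 8 increased, those of the dentate gyrus to 11.7 to 15.7 CPM and 15.2 to 21.4 CPM with 1 of 5 decreased and 1 increased, and those of the thalamus to 75.1 to 84.9 CPM and 68.7 to 80.4 CPM with 1 of 6 decreased and 1 increased. The cerebellar granule cell markers summed to 41.5 to 45.4 CPM and 57.8 to 70.3 CPM with 1 of 5 tested increased, and their defining gene *Gabra6* was at or near 0 in every mouse (0.323 CPM at most).

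**Figure D5:**
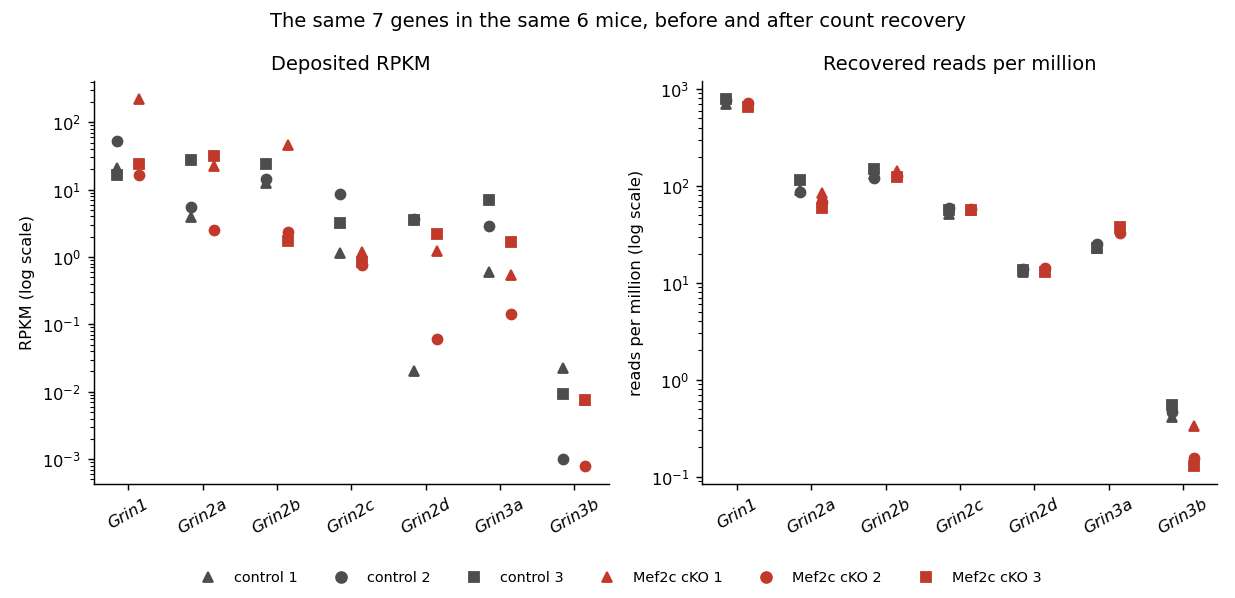
Deposited RPKM (left) and recovered CPM (right) of the 7 NMDA receptor subunit genes in the 6 mice, on log axes; points are mice. For *Grin2d* the highest deposited value was 177 times the lowest, against 1.10 times for the recovered CPM.

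The recovery of reads decided what could be seen of these genes. The deposited RPKM of *Grin2d* ran from 0.0203 to 3.61 over the 6 mice, because its 272 to 702 reads had been divided by lengths from 3811 to 628664 bases. For *Grin3a* the lengths ran from 3308 to 229291 bases, and the highest deposited RPKM was 48.5 times the lowest where the recovered CPM differed 1.65-fold. Compared as deposited, no subunit gene passed (5 decreased and 9 increased of 7974 genes tested by limma), and *Grin3a* had a log2 fold change of -1.91 with an SE of 1.30.

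The annotation of mm9 places other genes within several of the 7. The gene *Ppp3r2* lies within *Grin3a* on the same strand and shares no exon base with it, and it had 0 reads in every mouse. *Grin1* shares 1307 exon bases with the antisense transcript *E130003G02Rik*, and *Grin3b* shares 1059 with a gene on the other strand. *Grin2b* and *Grin2c* share at most 143 with any single noncoding gene on the other strand. The libraries were directional, but whether counting used the strand is not given in the sources used here, so reads of these antisense transcripts could be part of the counts. No overlapping gene was annotated for *Grin2a* or *Grin2d*.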

How the data were processed

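The authors made directional libraries from polyA RNA of somatosensory cortex (3 control, 3 *Mef2c* cKO males), aligned the reads to mm9 (TopHat, Bowtie), obtained gene counts with HTSeq and turned these into RPKM. The deposited values are these RPKM, in one table per mouse. Versions are not given in the sources used here. Samples were grouped by their labels.

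Whole reads and the sample totals were recovered here from the steps of the RPKM values. Each table used 65 to 295 lengths, which recur in a fixed cycle along genes sorted by NCBI gene ID, and a value that several lengths fitted was settled by its neighbours in that order. Counts came back for 98.49% to 99.31% of the nonzero values, the rest being missing. A few counts may be wrong. The 92 rows without a gene name held up to 0.079% of the reads and stayed out of the tests. Reads over the sample total gave CPM, fitted as log2(CPM + 0.1) with limma 3.58.1 (lmFit, eBayes with a variance trend) in R 4.3.3, for genes above 0.5 CPM in every mouse of a genotype and with a count in at least 2 mice of each. Ratios were compared by exact permutation tests. The recovery and the limma fit were tested on simulated data. The simulated lengths stopped short of the longest ones behind the subunit genes, so that test does not cover these. Python 3.11.15, numpy 2.4.6, pandas 2.3.3, scipy 1.17.1 and matplotlib 3.10.9 were used.

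The subunit genes and lists were chosen with earlier results of these data known. Named genes are the 7 subunit genes, up to 6 genes past both cut-offs in each list, the 3 genes most alike to each subunit gene past them (mean of at least 10 CPM) and *Mef2c*. Other list genes and markers were named after their values were seen. Alternatives were pseudocounts of 0.5 and 1, other filters, scalings and variance models, the deposited RPKM, replicate number or age in the fit, a cut-off of 1, missing ambiguous counts and leaving out mice. Intervals of single counts cover counting error only. The values of 1 list gene are not reported here.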

Additional observations from a re-analysis of the deposited data

How the results depend on the processing

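With the deposited RPKM as they stand, directions turned for *Grin1* (log2 fold change 0.73), *Grin2a* (0.53), *Grin2c* (-1.69) and *Grin3a* (-1.91), and for the log2 ratios *Grin2a*:*Grin2b* (2.05), *Grin2b*:*Grin1* (-2.25), *Grin2c*:*Grin1* (-2.52), *Grin2d*:*Grin1* (-0.95) and *Grin3a*:*Grin1* (-2.91). *Grin3b* moved to -0.0715, and 0 subunit genes and 0 list genes passed in either direction. The lengths in these values differ between mice. *Grin2a* lost its call, leaving 0 decreased subunit genes, at a log2 fold change of -0.47 without the filter on low values (limma adjusted p = 0.231), without the variance trend (0.105) and with age in the fit (0.0543). It was -0.36 to -0.60 with each mouse left out in turn, where the number of decreased subunit genes was 0 to 1. The cut-off of 1 left neither *Grin2a* (-0.47) nor *Grin3a* (0.59), hence 0 subunit genes, and 1 decreased and 3 increased list genes, against 6 and 9 without the filter. *Grin3a* kept its call under every other alternative run on recovered reads (limma adjusted p up to 0.0177, and 0.758 with the deposited RPKM).

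Near 0, directions also turned for *Grin2b* (-0.118 to 0.0410 in leave-one-out fits), *Grin2c* (-0.0267 without both 14-week-old mice, -0.0361 to 0.0708 in leave-one-out fits) and *Grin2d* (-0.00954 with voom weights, -0.0274 without both 14-week-old mice, -0.0215 to 0.0475 in leave-one-out fits), and for *Grin2b*:*Grin1* (-0.0127 to 0.133 with each mouse left out). *Grin3b* was -0.47 and -0.29 with pseudocounts of 0.5 and 1. With the replicate number as a block *Grin2a* stayed at -0.47 and lost its call (limma adjusted p = 0.0808), so that 0 subunit genes decreased. Number 1 marks the 14-week-old mouse of each genotype, and the labels tie the numbers to nothing else. Deviations of same-numbered mice correlated at -0.187, -0.122 and -0.0942, no *Mef2c* cKO mouse correlated best with the control of its own number, and over all genes the block took the calls from 1131 decreased and 851 increased to 967 and 715. The block ended no other subunit call. The cause of these changes was not tested. *Grin3b* is limited by depth, with 3 to 28 reads per mouse.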

Other observations

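The lengths behind the RPKM values follow the order of the genes' NCBI IDs. With genes sorted by ID as text, and with values that 1 length alone allows, 66.5% of the 13572 pairs of genes that stand 65 places apart had the same length in *Mef2c* cKO replicate 2. The distance with the highest share was 130 places in replicate 1 of both genotypes (46.7% and 46.3% of pairs), 249 and 232 in control replicates 2 and 3 (27.3% and 29.7%) and 295 in *Mef2c* cKO replicate 3 (23.0%).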
